A study of Homo sapiens with 12 samples.

Results

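MTSS1, RNASE6, C16orf54 and MPEG1 are 4 genes, of 19775 with a probe set of their own, whose RNA was among the largest rises when the mantle cell lymphoma line Rec-1 was kept with a gamma-secretase inhibitor. They were chosen by that rise and by what is known of their proteins, which act at the membrane, in the cytoskeleton or in the defences of macrophages and B cells. The rule set no cutoff. All 9 of their probe sets are described, 5 for MTSS1, 2 for MPEG1 and 1 each for RNASE6 and C16orf54, of 54613 probe sets tested.

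The study compared 3 established human lines of mantle cell lymphoma, a cancer of mature B cells: Mino, Rec-1 and SP-49. Each line is a single culture model, so a difference between lines is a difference between these lines. Treatment lasted 24 h, with compound E at 1 µM, which inhibits gamma-secretase (the GSI groups), or with the solvent DMSO at 0.1% (the Mock groups). Mino grew in RPMI with 15% FBS, and Rec-1 and SP-49 in RPMI with 10% FBS, so serum level and line cannot be told apart. RNA was measured on 12 Affymetrix arrays, 2 in each of 6 groups. Values are on a log2 scale, on which a step of 1 is a doubling, and the median of all tested values was 1.99. The number of arrays limits the precision. Whether the 2 arrays of a group came from separate cultures is not stated in the sources used here. A p-value or interval therefore reflects the scatter of these particular samples, pooled over the 6 groups, and that scatter may be technical.

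Gamma-secretase is a membrane protease that cuts many membrane proteins. Its best known substrates are the Notch receptors: the cut frees their intracellular domain, which enters the nucleus, binds the DNA-binding protein RBPJ and switches on target genes such as HES1. Blocking the enzyme stops that signal, and some mantle cell lymphomas carry overactive NOTCH1. MTSS1 encodes a protein that senses or bends the plasma membrane with its I-BAR domain and also binds actin. C16orf54 encodes a predicted membrane protein found mainly in blood cells, whose function is little known. RNASE6 encodes a small secreted ribonuclease of the RNase A family with antimicrobial activity, made by monocytes and macrophages. MPEG1 encodes perforin-2, a pore-forming protein of phagocytes and other cells that damages engulfed bacteria.

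Of the 4 genes, RNASE6 alone has a promoter in the RefSeq table used here; those of MTSS1, C16orf54 and MPEG1 are named only. The RNASE6 promoter is shown for that reason, and was searched for motifs of factors that act in Notch signalling and in macrophages and B cells. It covers 250 bases before to 50 after the start of the gene on the plus strand (RefSeq, GRCh38.p14, chr14:20781018-20781317), read 5′ to 3′. Capitals mark matches to AGGAAG, a core bound by ETS factors such as PU.1, on either strand.
RNASE6 promoter: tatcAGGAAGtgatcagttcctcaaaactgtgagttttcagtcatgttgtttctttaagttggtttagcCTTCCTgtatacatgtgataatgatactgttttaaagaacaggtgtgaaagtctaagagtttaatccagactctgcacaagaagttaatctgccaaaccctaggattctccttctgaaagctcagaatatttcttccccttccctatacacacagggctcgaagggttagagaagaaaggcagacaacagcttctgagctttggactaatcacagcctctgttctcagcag

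AGGAAG matched at 2 places, with first bases 246 and 181 bases before the start, the first on the plus strand and the other on the opposite strand. The same letters were present in 33.6% of 35116 RefSeq promoters of 300 bases, both strands searched. The RBPJ core TGGGAA had 0 matches and occurred in 24% of the promoters. The E-box CACGTG had 0 matches (7.26% of promoters), and so did GAAANNGAA, a motif of interferon regulatory factors (8.11%). These motifs do not overlap one another in this window. A match is a run of letters, and 0 matches says only that these letters are not in this window.

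HES1, the standard Notch target, was read as a check of the inhibitor. It fell from 5.77 ± 0.14 to 1.96 ± 0.37 (SD, n = 2) in Rec-1 and from 5.94 ± 0.24 to 2.43 ± 0.15 in SP-49 (adjusted p = 5.91e-06 and 2.09e-05). Adjusted p-values throughout come from limma, a linear model fitted to every probe set on all 12 arrays, with Benjamini-Hochberg adjustment over the 54613 probe sets; a value under 0.05 is called. In Mino HES1 was 1.84 ± 0.22 with DMSO and 1.77 ± 0.06 with the inhibitor, near the median of all values in both groups. It had little room to fall there, so it cannot check the inhibitor in Mino. Of 9 measured genes used in typing mantle cell lymphoma, whether by a high or a low level, only CD200 lay under the median probe set in every group. CCND1, encoding cyclin D1, lay between 8.32 and 10.74 in the 6 group means. Of the 9, 1 rose in Rec-1, CD79B, and 0 were called in SP-49 (3 unadjusted). Correlations over probe sets ran from 0.979 to 0.995 within a line and from 0.931 to 0.953 between lines. The second GSI array of Rec-1 and that of SP-49 had the narrowest signal ranges, with SDs of 1.95 and 1.99 over probe sets. No batch or scan date is stated in the sources used here.

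MTSS1 had the largest rise in Rec-1. Its brightest probe set, 203037_s_at, read 4.18 and 4.06 on the Rec-1 Mock arrays and 6.76 and 6.29 on the Rec-1 GSI arrays. Both inhibitor arrays lay far above both Mock arrays, and the change was 2.41 (standard error, SE, 0.17), or 5.32-fold. In SP-49 the same probe set read 5.86 and 6.08 with DMSO and 6.41 and 6.53 with the inhibitor. In Mino it read 3.07 and 3.29 with DMSO and 3.14 and 3.25 with the inhibitor, so the Mino arrays overlapped and the SP-49 arrays did not.

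The other 4 MTSS1 probe sets gave smaller values, and smaller changes in Rec-1. 203036_s_at read 2.54 and 2.25 in Rec-1 Mock and 2.76 and 2.91 in Rec-1 GSI, a change of 0.44. In SP-49 it read 1.98 and 2.33 with DMSO and 2.71 and 2.80 with the inhibitor, and in Mino 2.35 and 2.27 against 2.37 and 2.26. This probe set thus lay higher on both inhibitor arrays in Rec-1 and in SP-49, with overlap in Mino. 229780_at read 2.53 and 2.54 in Rec-1 Mock and 2.78 and 3.39 in Rec-1 GSI, a change of 0.55, and its arrays overlapped in SP-49 and in Mino. 210359_at and 210360_s_at lay under the median probe set in all 6 groups, with Rec-1 changes of 0.38 and 0.06. The Rec-1 arrays of 210359_at overlapped. Averaged over its 5 probe sets, MTSS1 changed by 0.77 in Rec-1, so the size of its rise rests on the bright probe set.

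C16orf54 lay low in Rec-1 and Mino and higher in SP-49 before treatment. Its probe set 1559584_a_at read 2.05 and 2.63 in Rec-1 Mock and 5.06 and 4.34 in Rec-1 GSI, a change of 2.36 (SE 0.29), or 5.13-fold. The groups did not overlap, but each pair of Rec-1 arrays differed by more than 0.5. In SP-49 it read 4.45 and 4.03 with DMSO and 4.29 and 3.91 with the inhibitor. In Mino it read 3.13 and 2.50 with DMSO and 2.82 and 3.04 with the inhibitor. The arrays of the 2 treatments overlapped in both of these lines.

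RNASE6 gave the closest pair of Rec-1 GSI arrays of the 9 probe sets. Its probe set 213566_at read 2.79 and 2.97 in Rec-1 Mock and 5.20 and 5.21 in Rec-1 GSI, a change of 2.33 (SE 0.23), or 5.01-fold. In SP-49 it read 5.02 and 4.97 with DMSO and 5.22 and 4.32 with the inhibitor, so 1 inhibitor array lay above both Mock arrays and the other below. The low value is that of the array with the narrow signal range. In Mino it read 7.17 and 7.35 with DMSO and 7.12 and 7.32 with the inhibitor, its highest level in the series and with overlapping treatments. The SE of the Rec-1 change takes in the SP-49 GSI SD of 0.64, against SDs of 0.12 and 0.01 in Rec-1 Mock and GSI.

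MPEG1 had the widest range between lines, and both of its probe sets showed it. 226841_at read 3.53 and 3.57 in Rec-1 Mock and 5.61 and 5.21 in Rec-1 GSI, a change of 1.86 (SE 0.15), or 3.62-fold. In SP-49 it read 10.70 and 10.60 with DMSO and 10.23 and 10.36 with the inhibitor, while its Mino values were 6.42 and 6.61 with DMSO and 6.42 and 6.46 with the inhibitor. The inhibitor arrays were thus the higher ones in Rec-1 and the lower ones in SP-49, with overlap in Mino. The second probe set, 226818_at, read 3.27 and 3.39 in Rec-1 Mock and 5.49 and 4.45 in Rec-1 GSI, a change of 1.64 (SE 0.26), or 3.12-fold. Its inhibitor arrays in Rec-1 differed by more than 1, with the narrow-range array the lower. In SP-49 it read 10.64 and 10.47 with DMSO and 10.26 and 10.41 with the inhibitor. In Mino its arrays overlapped, at 6.45 and 6.31 with DMSO and 6.48 and 6.25 with the inhibitor.

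**Figure D1:**
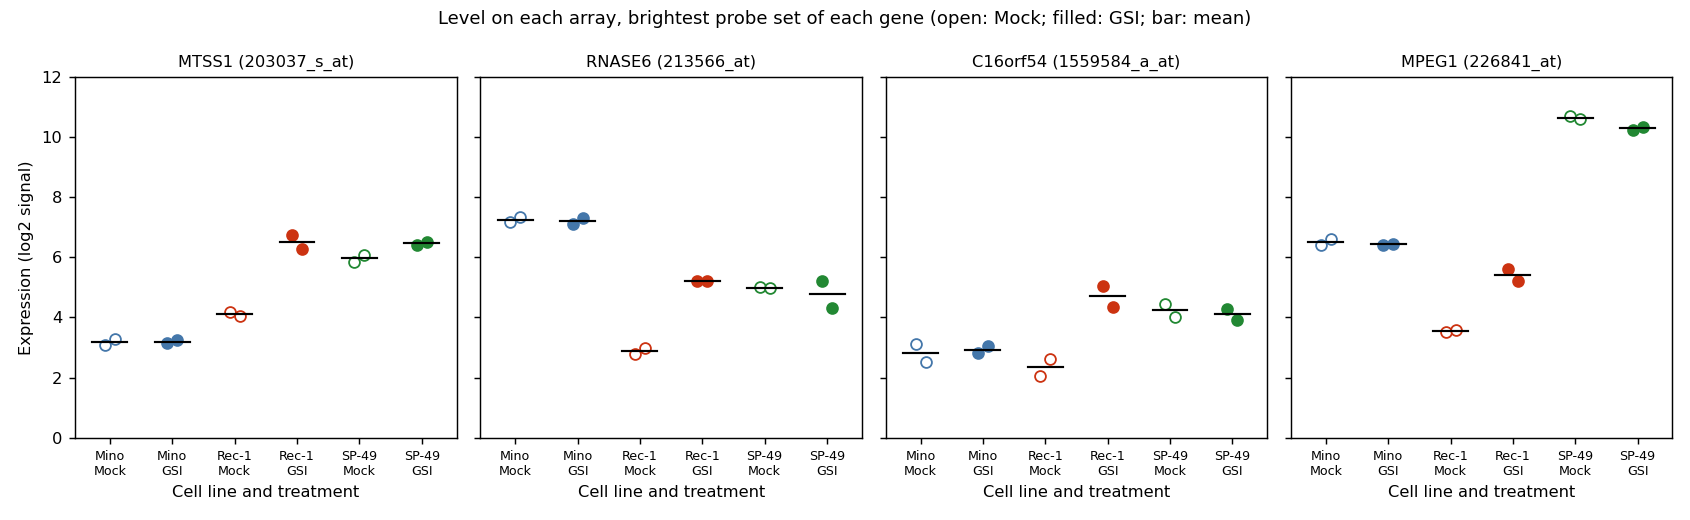
Level of each gene's brightest probe set on each of the 12 arrays, in log2 signal units, by cell line and treatment (open points, Mock; filled points, GSI; bars, mean of 2 arrays). The filled Rec-1 points sit 1.86 to 2.41 above the open ones on average, and MPEG1 runs from 3.55 in Rec-1 Mock to 10.65 in SP-49 Mock.

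Ranked from the largest rise down by each gene's brightest probe set in Rec-1, falls coming last, MTSS1 was 1st, C16orf54 2nd, RNASE6 3rd and MPEG1 7th of 19775 genes. These Rec-1 values selected the genes, so they are a description and carry no test. In the same comparison 0.981% of all probe sets and 1.68% of genes were called higher. Of the 9 probe sets, 5 were past that threshold and 8 had both inhibitor arrays above both Mock arrays, which held for 20.7% of all probe sets. Nothing is read from those counts, since the rule used this contrast. Leaving out each Rec-1 array in turn gave changes of 2.18 to 2.64 for MTSS1 203037_s_at, 2.0 to 2.72 for C16orf54, 2.24 to 2.41 for RNASE6 and 1.66 to 2.06 for MPEG1 226841_at. For MPEG1 226818_at the range was wider, 1.12 to 2.16.

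The SP-49 changes come from arrays that the rule did not use, and show how these genes move with the inhibitor elsewhere. Their SEs are not separate in this way, since the fit pools the scatter of all groups, Rec-1 included. For MPEG1 226818_at the SD was 0.735 in Rec-1 GSI, against 0.117 and 0.105 in SP-49 Mock and GSI, and the SE was 0.255. P-values and intervals in SP-49 and Mino are therefore not independent of the Rec-1 arrays. None of the 9 probe sets was called in SP-49, against 0.0494% of all probe sets (limma), and the smallest adjusted p was 0.274. Before adjustment 3 of them had p under 0.05, and 7.39% of all probe sets did. The median change was -0.06 for the 9 probe sets and -0.01 for all probe sets. The former is the change of MTSS1 210360_s_at, which lay under the median probe set in all 6 groups.

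The largest SP-49 changes were those of MTSS1. 203036_s_at was 0.60 higher with the inhibitor (95% interval 0.27 to 0.94, adjusted p = 0.274), and 203037_s_at was 0.50 higher (0.14 to 0.87, adjusted p = 0.469). The other 3 MTSS1 probe sets changed by -0.06 to 0.16 (adjusted p from 0.954 to 0.989). For 3 of the 5 MTSS1 probe sets, 203037_s_at, 203036_s_at and 210359_at, both inhibitor arrays lay above both Mock arrays, which held for 17.5% of all probe sets.

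MPEG1 lay lower with the inhibitor in SP-49, without passing the threshold. 226841_at changed by -0.36 (95% interval -0.68 to -0.03, adjusted p = 0.623) and 226818_at by -0.22 (-0.78 to 0.34, adjusted p = 0.947). Both MPEG1 probe sets and the dim MTSS1 210360_s_at had both inhibitor arrays below both Mock arrays, which held for 22.6% of all probe sets. RNASE6 changed by -0.22 (-0.72 to 0.28, adjusted p = 0.936); without the narrow-range array it changed by 0.23. C16orf54 changed by -0.14 (-0.76 to 0.49, adjusted p = 0.982), and by 0.05 without that array. The difference between the SP-49 and Rec-1 changes was not tested, because Rec-1 chose the genes.

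In Mino no probe set of the 9 was called, and neither was any of the 54613 (0% of probe sets and 0% of genes, limma, smallest adjusted p 0.407). Unadjusted p was under 0.05 for 0 of the 9 and for 4.98% of all probe sets. The changes were 0.02 for MTSS1 203037_s_at (95% interval -0.35 to 0.38), 0.11 for C16orf54 (-0.52 to 0.74), -0.04 for RNASE6 (-0.54 to 0.46) and -0.08 for MPEG1 226841_at (-0.40 to 0.25). MPEG1 226818_at changed by -0.01 (-0.57 to 0.55). Only MTSS1 210359_at had both inhibitor arrays above both Mock arrays, as did 15.3% of all probe sets, and it changed by 0.29 at a level under the median probe set.

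The SP-49 change minus the Mino change was called for none of the 9 probe sets, against 0.0220% of all probe sets (limma). Unadjusted p was under 0.05 for 1 of the 9, MTSS1 203036_s_at, at 0.60 (95% interval 0.12 to 1.07, adjusted p = 0.692), and for 6.34% of all probe sets. The difference was 0.49 for MTSS1 203037_s_at (-0.03 to 1.00, adjusted p = 0.805). It was -0.28 for MPEG1 226841_at (-0.74 to 0.18, adjusted p = 0.893), -0.25 for C16orf54 (-1.13 to 0.64, adjusted p = 0.968) and -0.18 for RNASE6 (-0.89 to 0.52, adjusted p = 0.97).

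**Figure D2:**
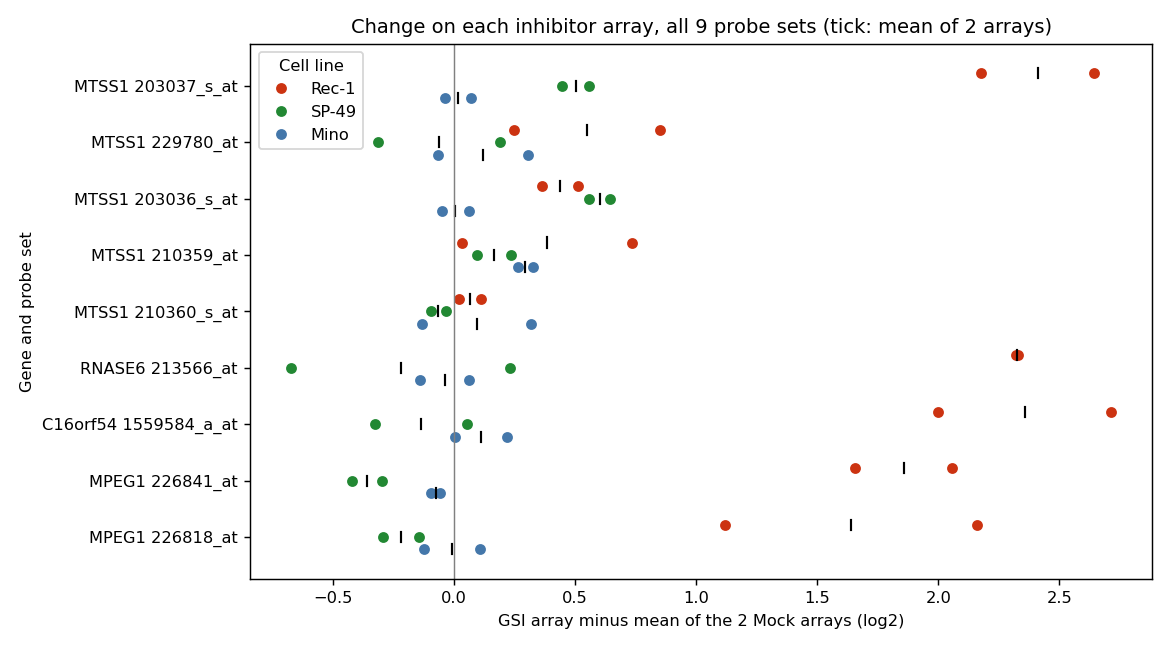
Change of each of the 9 probe sets on each inhibitor array, as that array minus the mean of the 2 Mock arrays of its line (log2), with ticks at the mean. The Rec-1 points of MTSS1 203037_s_at, RNASE6, C16orf54 and MPEG1 lie at 1.12 or more; the SP-49 points of these lie at 0.56 or less, and the Mino points lie around 0.

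Without the inhibitor, SP-49 and Mino differed strongly in these genes. MPEG1 was 17.6-fold higher in SP-49 than in Mino by 226841_at (difference 4.14, 95% interval 3.81 to 4.46, adjusted p = 5.81e-09) and 18.1-fold higher by 226818_at (adjusted p = 3.93e-07). MTSS1 203037_s_at was 6.91-fold higher in SP-49 (difference 2.79, 2.42 to 3.15, adjusted p = 3.34e-07). C16orf54 was 2.68-fold higher in SP-49 (difference 1.42, 0.79 to 2.05, adjusted p = 0.00397). RNASE6 ran the other way and was 4.81-fold lower in SP-49 than in Mino (difference -2.27, -2.76 to -1.77, adjusted p = 2.36e-05). The threshold was passed by 4 probe sets higher and 1 lower in SP-49, of 9, against 17.0% of all probe sets either way (limma). The other 4 MTSS1 probe sets differed by -0.16 to 0.12 and did not pass. C16orf54 did not pass without Mino Mock 2 (1.11, adjusted p = 0.0519) or without SP-49 Mock 1 (1.21, adjusted p = 0.0535).

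Each gene ordered the 6 groups in its own way. For MTSS1 203037_s_at, Rec-1 GSI (6.53 ± 0.33, SD, n = 2) and SP-49 GSI (6.47 ± 0.08) came highest with overlapping arrays. SP-49 Mock (5.97 ± 0.16), Rec-1 Mock (4.12 ± 0.09) and then the overlapping Mino groups (3.20 ± 0.08 with the inhibitor, 3.18 ± 0.15 with DMSO) followed. In MTSS1, then, the treated Rec-1 arrays reached the range of treated SP-49.

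C16orf54 had Rec-1 GSI highest (4.70 ± 0.51), then SP-49 Mock (4.24 ± 0.30) and SP-49 GSI (4.10 ± 0.27), neighbours whose arrays overlapped. Mino GSI (2.93 ± 0.15), Mino Mock (2.82 ± 0.44) and Rec-1 Mock (2.34 ± 0.41) came lowest, again with overlap between neighbours. C16orf54 therefore fell into a high and a low set of groups, with a gap of 1.17 between SP-49 GSI and Mino GSI.

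RNASE6 was highest in Mino Mock (7.26 ± 0.12) and Mino GSI (7.22 ± 0.14), which overlapped. Rec-1 GSI (5.20 ± 0.01), SP-49 Mock (4.99 ± 0.04) and SP-49 GSI (4.77 ± 0.64) formed the middle, and Rec-1 Mock (2.88 ± 0.12) was lowest. The SP-49 groups overlapped, and Rec-1 GSI lay 0.21 above SP-49 Mock. For MPEG1 226841_at the order was SP-49 Mock (10.65 ± 0.07), SP-49 GSI (10.29 ± 0.09), Mino Mock (6.51 ± 0.14), Mino GSI (6.44 ± 0.03), Rec-1 GSI (5.41 ± 0.28) and Rec-1 Mock (3.55 ± 0.03). The Mino groups overlapped, and 226818_at gave the same order.

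Rec-1 Mock thus had the lowest group mean of RNASE6, C16orf54 and MPEG1, and of MTSS1 a level between SP-49 and Mino. The Rec-1 Mock arrays entered the contrast that chose the genes, so these levels are given as a description. Treated Rec-1 lay above untreated SP-49 by 0.56 for MTSS1, 0.46 for C16orf54 and 0.21 for RNASE6, where untreated Rec-1 had been 1.85, 1.90 and 2.12 lower. For MPEG1 treated Rec-1 stayed 5.24 below untreated SP-49 and 1.10 below untreated Mino. Treated Rec-1 also stayed 2.05 below untreated Mino for RNASE6.

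Over the 12 arrays the 4 genes did not follow a common pattern. Pearson's r was 0.85 between MTSS1 and C16orf54, 0.54 between C16orf54 and MPEG1 and 0.49 between MTSS1 and MPEG1. It was 0.15 between RNASE6 and MPEG1, -0.02 between RNASE6 and C16orf54 and -0.45 between MTSS1 and RNASE6. The points are arrays of 3 lines, and all 4 genes were chosen for their rise in Rec-1. Differences between lines and that rise therefore both enter these values, which are a description. The same holds for the similar genes named next.

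The genes with the most similar patterns were sought among 4085 genes with an SD of at least 0.5 over the arrays and at least 1 group mean at or above the median probe set. For MTSS1 they were SAMSN1 (r = 0.99), an adaptor protein of lymphocytes, ENPP2 (r = 0.99), which encodes autotaxin, and YPEL5 (r = 0.98). They changed by 0.81, 0.91 and 1.55 in Rec-1, by 0.10, 0.14 and 0.27 in SP-49, and by -0.03, -0.02 and 0.04 in Mino. For RNASE6 they were IFITM1 (r = 0.98), an interferon-induced membrane protein, GMFG (r = 0.97), a regulator of branched actin, and CAPG (r = 0.97), an actin-capping protein of macrophages. Their Rec-1 changes were 1.66, 1.07 and 1.45, their SP-49 changes -0.07, 0.07 and -0.31, and their Mino changes -0.01, 0.01 and -0.13.

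For C16orf54 the likenesses were weaker. They were MOB3A (r = 0.93), SAMD9L (r = 0.92), an interferon-induced antiviral gene, and RGL2 (r = 0.88), an effector of Ras-family proteins, with Rec-1 changes of 1.26, 2.17 and 0.94. Their SP-49 changes were -0.13, 0.20 and 0.25, and their Mino changes 0.36, 0.26 and 0.03. For MPEG1 they were JAZF1 (r = 0.99), CD72 (r = 0.99), an inhibitory receptor of B cells, and PLCG2 (r = 0.99), a phospholipase of B-cell receptor signalling. Their Rec-1 changes were 0.26, 0.73 and 0.64, against 1.86 for MPEG1, and all 3 were highest in SP-49, as MPEG1 was.

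**Figure D3:**
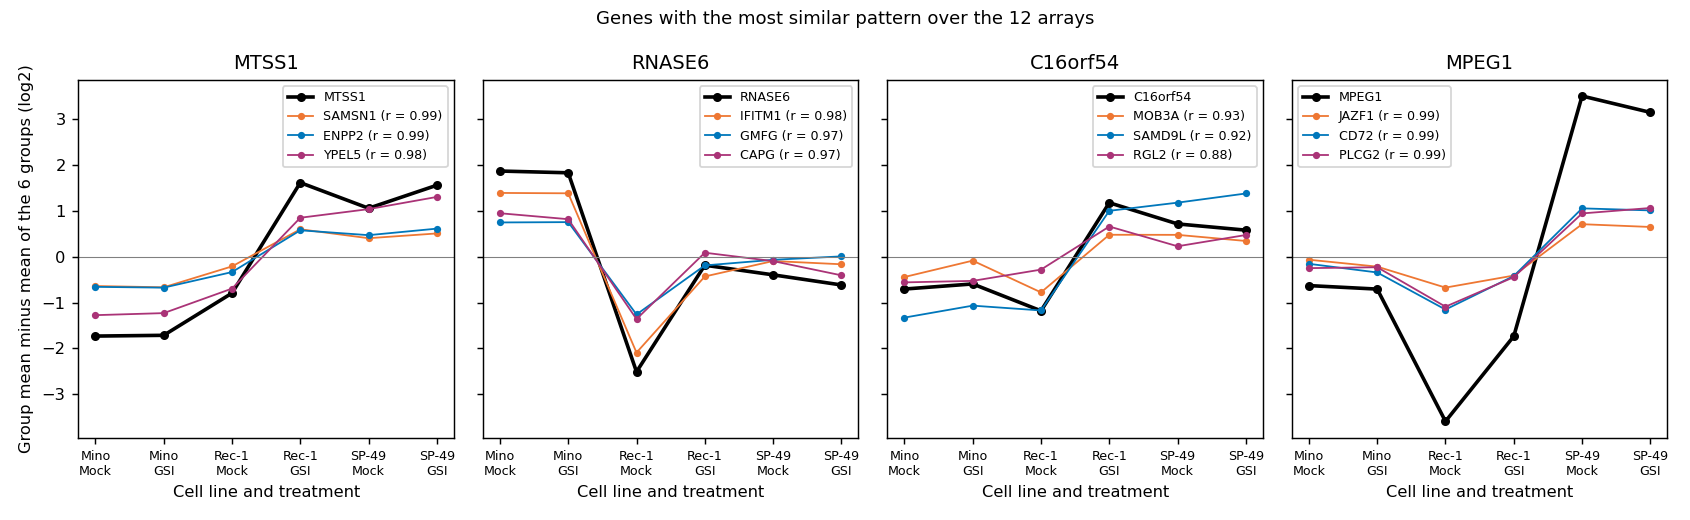
Group means of each of the 4 genes (black) and of the 3 genes with the highest Pearson r to it over 12 arrays, each minus its own mean over the 6 groups (log2). MTSS1 and C16orf54 are lowest in Mino or Rec-1 Mock and high in treated Rec-1 and in SP-49 with or without the inhibitor. RNASE6 is highest in Mino, and MPEG1 is highest in SP-49. The lines join groups only to guide the eye.

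The genes next to the 4 in the annotation were measured in the same arrays, and none of their changes was called in any line. Beside MTSS1, NDUFB9, a subunit of respiratory complex I, changed by -0.06 in Rec-1 and the non-coding LINC00964 by -0.13. Beside RNASE6, EDDM3B changed by -0.21 and RNASE1, another secreted ribonuclease, by -0.11. Beside C16orf54, QPRT, an enzyme of NAD synthesis, changed by -0.25 and ZG16 by 0.48 (adjusted p = 0.208). Beside MPEG1, OSBP, an oxysterol-binding protein, changed by 0.20 and DTX4, of the Deltex family of Notch-linked ubiquitin ligases, by 0.27. In SP-49 DTX4 went from 7.66 to 6.42 (-1.24, adjusted p = 0.0565), the lowest adjusted p among the neighbours.

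Lists of related genes were drawn from textbook knowledge, but with earlier results of these data known. They were counted with 1 probe set a gene in the same limma fit. The 4 genes themselves were left out of the lists. Over all genes in Rec-1, 1.68% rose, 2.95% fell and the median change was 0.01. In SP-49 0.0101% rose and 0.0759% fell, with a median of -0.02. In Mino no gene of any list was called.

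The genes listed for kinship or a like function to MTSS1, RNASE6 and MPEG1 did not pass the threshold in Rec-1. C16orf54 had no such list. Of the other I-BAR genes, 0 of 4 were called (0 at unadjusted p under 0.05; 1, lower, without Rec-1 GSI 1) and the median was -0.19; BAIAP2L1, encoding an actin-linked membrane-curving protein, went from 2.95 to 2.43. In SP-49 0 of 4 were called (2 unadjusted), and BAIAP2L1 read 4.82 ± 0.34 with DMSO and 5.57 ± 0.42 with the inhibitor (adjusted p = 0.501). Of the other RNase A genes measured, 0 of 5 were called (1 unadjusted), with a median of -0.05, and their group means lay between 1.08 and 2.07 in the 3 lines. Of 14 genes listed as pore-forming or related to perforin, the gasdermins GSDMB, GSDMD and GSDME among them, 0 were called (1 unadjusted), with a median of -0.04. With probe sets averaged or quantile normalization repeated, 1 was called higher. In SP-49 0 of 5 RNase A genes (0 unadjusted) and 0 of those 14 genes (2 unadjusted) were called. PRF1, encoding the perforin of killer lymphocytes, went from 3.54 to 3.25 in Rec-1 and lay at 7.18 in Mino Mock.

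Among leukocyte actin regulators, 4 of 37 rose in Rec-1 and 0 fell, with a median change of 0.21. MYO1G, a membrane-bound myosin of blood cells, rose from 2.98 ± 0.35 to 4.46 ± 0.39, or 2.79-fold (adjusted p = 0.00326). WIPF1, a partner of the Wiskott-Aldrich protein, rose by 0.79 (adjusted p = 0.00999), ARPC5, a subunit of the actin-nucleating Arp2/3 complex, by 0.62 (adjusted p = 0.0146), and RAC2, a GTPase of blood cells, by 0.52 (adjusted p = 0.0397). In SP-49 0 of 37 were called (2 unadjusted), and the median was -0.00. The Rec-1 count was 1 without either Rec-1 Mock array, 2 without Rec-1 GSI 2, 0 with only the 4 Rec-1 arrays fitted, and 10 (9 up, 1 down) with an intensity trend and robust prior.

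Among phagosome and endosomal defence genes, 3 of 33 rose in Rec-1 and 0 fell, with a median of 0.16. CYBB, the catalytic subunit of the phagocyte oxidase, rose from 4.72 ± 0.01 to 5.72 ± 0.18, or 2.01-fold (adjusted p = 0.00204). CTSH, a lysosomal protease, rose by 0.94 (adjusted p = 0.00342) and AIM2, a sensor of cytosolic DNA, by 0.74 (adjusted p = 0.0114). None of the 33 was called in SP-49 (5 unadjusted). The Rec-1 count was 5 after quantile normalization was applied again and 0 with only the 4 Rec-1 arrays fitted.

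Among blood-lineage transcription factors, 3 of 29 rose and 1 fell in Rec-1, with a median of 0.09. KLF2, a factor of resting lymphocytes, rose from 4.13 ± 0.14 to 5.55 ± 0.27, or 2.67-fold (adjusted p = 0.00204). ID3, an inhibitor of E proteins, rose by 0.90 (adjusted p = 0.00547) and MEF2C by 0.69 (adjusted p = 0.0364). RUNX3 fell by 0.89 (adjusted p = 0.00233). SPI1, which encodes PU.1, went from 2.73 to 3.18 (adjusted p = 0.358) and IRF8 from 8.03 to 7.80 (adjusted p = 0.527), neither past the threshold. SP-49 had 0 of 29 called (10 unadjusted). The Rec-1 count was 2 without Rec-1 Mock 2, 0 with only the 4 Rec-1 arrays fitted, and 8 with an intensity trend and robust prior.

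Among B-cell membrane proteins, 7 of 50 rose and 3 fell in Rec-1, with a median of 0.25. CD52 rose by 1.08 (adjusted p = 0.001), CD79B, a chain of the B-cell receptor, by 1.06 (adjusted p = 0.00121), and CD180, a Toll-like receptor relative, by 0.87 (adjusted p = 0.0045). CR2, the complement receptor also called CD21, fell by 3.14 (adjusted p = 5.91e-06). CR2 was also the only called member in SP-49, where it fell by 2.75; 1 of 50 passed there and 16 had unadjusted p under 0.05. The Rec-1 count was 6 without Rec-1 Mock 1, 3 without Rec-1 Mock 2, 1 with only the 4 Rec-1 arrays fitted, and 16 with an intensity trend and robust prior. Of 14 direct Notch targets, 5 were called lower in Rec-1 (HES1, HEY1, HES4, NRARP and NOTCH3) and 0 higher, and 1 of 14, HES1, fell in SP-49. Their Rec-1 changes ran from -3.80 for HES1 to 0.81 for CDKN1A, with a median of -0.68. Without Rec-1 GSI 1 the Rec-1 count was 8 (6 down, 2 up), and without either Rec-1 GSI array the SP-49 count was 2; with only the 4 Rec-1 arrays fitted the Rec-1 count was 2.

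**Figure D4:**
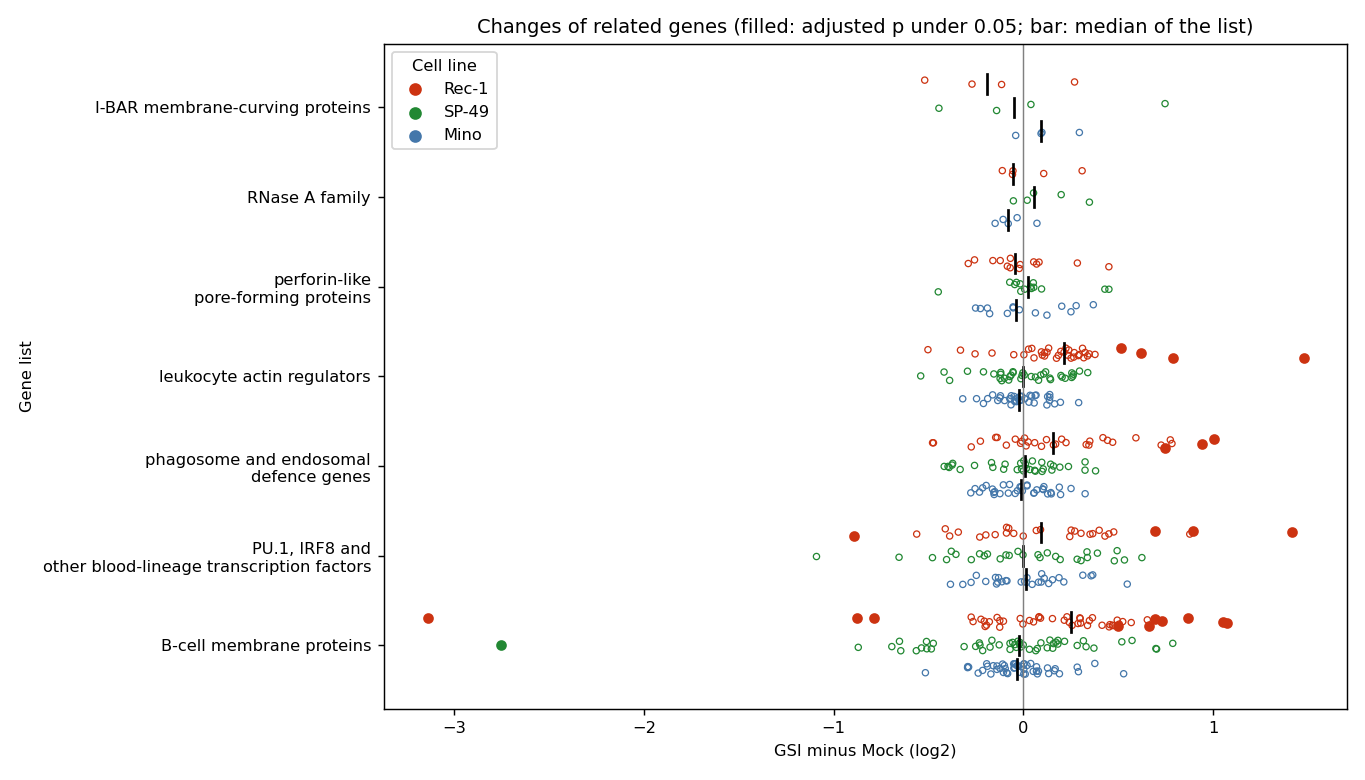
Change (inhibitor minus Mock, log2) of each measured gene of 7 lists in each line, with filled points for an adjusted p under 0.05 and bars at the list medians. Filled points occur in Rec-1 in the lists of actin regulators, phagosome genes, transcription factors and B-cell membrane proteins, in SP-49 for CR2 alone, and not in Mino.

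Markers of other cell types were read on the same arrays, since RNASE6 and MPEG1 are known from macrophages. Of 22 measured markers of macrophages and monocytes, 15 lay under the median probe set in every group, among them CD14, CD163, CSF1R, LYZ and the C1Q genes. The mean of the 22 was 1.64 to 1.69 on the Rec-1 Mock arrays and 1.70 to 1.78 on the Rec-1 GSI arrays. It was 1.59 on both SP-49 Mock arrays and 1.65 to 1.66 on the SP-49 GSI arrays, and in Mino it ran from 1.63 to 1.70 over both treatments. FCN1, a lectin of monocytes, rose from 1.54 to 2.26 in Rec-1 (adjusted p = 0.033), 1 of 22 called. It was not called when either Rec-1 Mock array, Rec-1 GSI 2, either Mino GSI array or either SP-49 Mock array was left out. In SP-49 0 of 22 were called (2 unadjusted). In bulk RNA, fewer cells of a type and less RNA per cell cannot be told apart.

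Of 13 dendritic cell markers 1 rose in Rec-1: CD1C, a lipid-presenting molecule that B cells also carry, went from 6.39 to 8.48 (4.25-fold, adjusted p = 0.000688). The mean of the 13 was 2.76 to 2.81 on the Rec-1 Mock arrays and 2.96 to 3.15 on the Rec-1 GSI arrays. On the SP-49 arrays it was 3.07 to 3.10 with DMSO and 2.74 to 2.88 with the inhibitor, and CD1C there read 5.82 with DMSO and 4.77 with the inhibitor on average (adjusted p = 0.159). SP-49 had 0 of 13 called (3 unadjusted). Of 17 T and NK cell markers 1 fell in Rec-1, CD3D, from 4.80 to 4.17 (adjusted p = 0.0357), a call lost without Rec-1 Mock 2, either Mino GSI array or any SP-49 array. None of the 17 was called in SP-49 (1 unadjusted). Of 13 markers of stroma and epithelium 0 were called in Rec-1 (2 unadjusted) and 1, CDH1, fell in SP-49 by 1.73 (adjusted p = 0.0296), a call lost without any 1 Mino array, either Rec-1 Mock array, SP-49 Mock 1 or either SP-49 GSI array. GAPDH's 3′ minus 5′ control signal, a sign of RNA quality, was 0.41 and 0.37 in Rec-1 Mock and 0.59 and 0.49 in Rec-1 GSI, against 0.25 to 0.44 on the arrays of the other lines. The same difference for ACTB overlapped between Rec-1 Mock (2.0 and 1.83) and Rec-1 GSI (2.29 and 1.92), and was 2.16 to 2.36 on the SP-49 arrays. The part of these values in the Rec-1 rises was not tested.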

How the data were processed

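RNA of 3 mantle cell lymphoma lines was measured on 12 arrays. The deposited values were taken as log2 signals; RMA and limma are named in the submitters' processing notes, without versions, and base 2 was inferred from the range of 0.58 to 12.8. Of 54675 probe sets, 62 controls among them, 41097 name 1 gene, 1801 several and 11777 none, and 41043 were given current symbols by gene number; controls were left out. Changes were fitted with limma 3.58.1 in R 4.3.3 (lmFit, eBayes, 6 group means, 6 residual and 5.57 prior degrees of freedom), two-sided, adjusted by Benjamini-Hochberg over 54613 probe sets within each contrast, with a threshold of 0.05. Lists took each gene's brightest probe set. Intervals of 95% are those of 1 probe set. The code was tested on simulated data. Members, 13 lists and tests were chosen with earlier results of these data known. Named genes were all members, 3 similar genes a member, both neighbours, and at most 4 called genes of each list and line; SPI1, IRF8, PRF1, BAIAP2L1, CCND1, NOTCH3 and single markers were added after their values were seen. Promoters are RefSeq's, GRCh38.p14; RNASE6 was the only match of 4 genes. Alternatives were other probe set rules, normalizations, priors and weights, a replicate block, and arrays left out.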

Additional observations from a re-analysis of the deposited data

Results flagged for a closer look

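The inhibitor arrays of both MPEG1 probe sets lay above the Mock arrays in Rec-1 and below them in SP-49, with no overlap in either line. The differences were, for 226841_at, 1.86 in Rec-1 and -0.36 in SP-49, and for 226818_at 1.64 in Rec-1 and -0.22 in SP-49. Neither SP-49 value passed the threshold (limma, adjusted p = 0.623 and 0.947), and 22.6% of all probe sets had both SP-49 inhibitor arrays below both Mock arrays. The dim MTSS1 probe set 210360_s_at showed the same order on a small scale, with 0.06 in Rec-1 and -0.06 in SP-49. The difference between the lines was not tested for these probe sets, because the Rec-1 change chose the genes.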

How the results depend on the processing

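Precision was limited by 2 arrays a group. Of the members' alternative values 897 kept their direction and side of the threshold, 29 turned sign, 2 moved by more than the replicate spread and 2 lost their call (C16orf54 between the Mock groups, without Mino Mock 2 or SP-49 Mock 1). The Rec-1 changes of the 4 genes' brightest probe sets stayed positive in each, with MTSS1 at 0.77 as the mean of its probe sets and RNASE6 at 2.43 after renewed quantile normalization. The count of called probe sets in Rec-1 was 1714 (536 up, 1178 down), 1141 with 1 probe set a gene, 2734 with an intensity trend and robust prior, 1116 with array weights, 16 with only the arrays compared, 979 without both narrow-range inhibitor arrays, and 535 to 3707 with each array left out (535 without Rec-1 Mock 1, 575 without Rec-1 Mock 2, 3707 without Rec-1 GSI 1, 999 without Rec-1 GSI 2). Its split was 802 up and 1025 down after renewed quantile normalization and 451 up and 1320 down after median centring. In SP-49 it was 27, then 60 with a gene's probe sets averaged, 234 with the trend, 120 with weights, 12 with only the arrays compared, 10 without both narrow-range arrays, and 9 to 84 with each array left out. In Mino it was 0, and 0 to 1 with each array left out. For the SP-49 change minus the Mino change it was 12, then 36 with the trend, 7 with the replicate block, 6 without both narrow-range arrays, and 4 to 17 with each array left out. For SP-49 Mock minus Mino Mock it was 9279, then 5069 with 1 probe set a gene and 4983 with a gene's probe sets averaged, which test fewer features.

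Same-numbered deviations correlated with r of 0.07 in Rec-1, -0.01 in SP-49 and 0.05 in Mino, so no strong shared effect of replicate number was seen. These correlations cannot show whether same-numbered arrays were cultured or handled together, which is not stated in the sources used here. The replicate block gave 1323 calls in Rec-1, 23 in SP-49 and 0 in Mino, and changed no member's call.

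Small changes turned sign under some settings, and none of them was called. Without both narrow-range arrays RNASE6 was 0.23 in SP-49 and 0.27 for SP-49 minus Mino, and C16orf54 was 0.0534 in SP-49. With median centring MPEG1 226818_at was 0.0165 in Mino. With each array left out, MTSS1 203037_s_at ran from -0.0911 to 0.12 in Mino. MTSS1 229780_at ran from -0.31 to 0.19 in SP-49, -0.0662 to 0.30 in Mino, -0.43 to 0.0725 for SP-49 minus Mino and -0.0372 to 0.17 between the Mock groups. MTSS1 203036_s_at ran from -0.0484 to 0.0604 in Mino and -0.33 to 0.018 between the Mock groups. MTSS1 210359_at ran from -0.27 to 0.0047 for SP-49 minus Mino and -0.0156 to 0.26 between the Mock groups, and MTSS1 210360_s_at from -0.13 to 0.32 in Mino and -0.38 to 0.0688 for SP-49 minus Mino. RNASE6 ran from -0.67 to 0.23 in SP-49, -0.14 to 0.0629 in Mino and -0.63 to 0.27 for SP-49 minus Mino. C16orf54 ran from -0.35 to 0.0754 in SP-49, -0.20 to 0.43 in Mino and -0.56 to 0.0674 for SP-49 minus Mino. MPEG1 226841_at ran from -0.17 to 0.022 and MPEG1 226818_at from -0.13 to 0.11 in Mino. The cause was not tested for any of these.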
